A study of Mus musculus with 6 samples.

Results

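The 49 genes described here encode Polycomb proteins, enzymes that add or remove methyl groups on histones, the HP1 proteins that bind methylated histone H3, and the enzymes and readers of DNA methylation. They were taken by name from the gene names printed in the array scanner files, with every probe of each name, and all 49 were among the 26763 genes tested (of 27962 gene names on the array). The Jarid1, Jmjd and Mll names are older symbols. Mll1 is now Kmt2a, Mll5 is Kmt2e, Jarid1a and Jarid1b are Kdm5a and Kdm5b, Jmjd1a is Kdm3a, Jmjd2a, Jmjd2b and Jmjd2c are Kdm4a, Kdm4b and Kdm4c, and Jmjd3 is Kdm6b.

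The RNA came from kidneys dissected from CD1 mouse embryos at E13.5 and kept as explants on filters in serum-containing medium. Of paired kidney rudiments, some received Scriptaid, a hydroxamate inhibitor of histone deacetylases (HDACs), at 2.0 µg/ml for 6 hours, and the others received Nullscript, a related compound used as an inactive control, at the same dose for the same time. There was no untreated group, so both groups shared the culture and exposure to a compound. Each of 3 biological replicates was hybridised to 2 two-colour arrays with the dyes exchanged (6 arrays). The labels do not say how many embryos went into a replicate. The RNA was from whole explants, so fewer cells of a type and less RNA per cell cannot be told apart.

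Polycomb repressive complex 2 (PRC2) methylates H3K27, and Polycomb repressive complex 1 (PRC1) reads that mark through its Cbx subunits and ubiquitinates histone H2A through its Ring subunits; together they hold developmental genes silent. Trithorax-group proteins act against this silencing at many of the same genes, and H3K9 methylation with HP1 marks heterochromatin. DNA methyltransferases write methyl groups on CpG sites, either copying an existing pattern (Dnmt1) or setting a fresh one (Dnmt3a and Dnmt3b), and in the embryonic kidney these silencing systems are active in the progenitors that form nephrons.

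Ratios below are log2 of the signal in the channel labelled Scriptaid over that in the channel labelled Nullscript, so a positive value is a higher signal under the Scriptaid label. This direction follows the dye fields of the samples and is not settled. Genes known to rise when HDACs are inhibited were higher under the Nullscript label: Hist1h1c, a linker histone gene, had a ratio of -1.72 ± 0.06 (SD, n = 3), and H1f0, another linker histone gene, had a ratio of -1.0 ± 0.15 (SD, n = 3). Ccnd1 had a ratio of 1.90 ± 0.19 (SD, n = 3). If the drug names were exchanged on all arrays, every sign below would turn, while sizes, tests and counts would stay. The labels are therefore used here only as "labelled Scriptaid" and "labelled Nullscript".

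Per channel, 91.5% to 96.5% of the spots were well above background. Arrays of different replicates with the same dye orientation correlated at 0.895 to 0.952 over probes, and the paired arrays of one replicate, with the dyes exchanged, at 0.757 to 0.853. Replicate values are means over both orientations. Marker lists of embryonic kidney cells also differed between the channels: all 10 nephron progenitor markers tested (median ratio 0.84) and all 7 stromal markers (0.66) were higher under the Scriptaid label, as were 12 of 15 markers of G2 and mitosis (0.59, with 1 the other way) and 10 of 17 of S phase (0.41, with 2 the other way). Ureteric bud markers gave 4 higher and 1 lower of 8 (0.18), renal vesicle markers 5 higher of 6 (0.47) and endothelial markers 5 higher of 6 (0.81). Of the neuronal markers, 4 of 5 were higher under the Nullscript label (median -0.42) and the other, Elavl4, passed the other way (1.29); 2 of 7 red blood cell markers were higher under the Nullscript label (-0.03), and macrophage markers gave 3 higher and 1 lower under the Scriptaid label of 6 (0.10). Over all genes tested 46.2% passed, 22.5% higher under the Scriptaid label and 23.7% higher under the Nullscript label (median -0.01). The share of red blood cell markers that passed, 28.6%, was below this. The part of these marker shifts in the results below was not tested.

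Across the 49 genes, 28 passed the test (limma, adjusted p under 0.05), 22 with a higher signal under the Scriptaid label and 6 with a higher signal under the Nullscript label. Over all genes tested 46.2% passed, 22.5% in the first direction and 23.7% in the second, and 57.1% of the Polycomb and methylation genes did. Their median ratio was 0.14, with a range of -1.50 to 1.13, where all genes had a median of -0.01. At least 1.5-fold differences that passed were found for 10 of the 49, against 10.9% of all genes. These 10 were Cbx7 and Dnmt3b, higher under the Nullscript label, and Dnmt3a, Nsd1, Bmi1, Jmjd2a, Cbx3, Mll5, Ash2l and Suv39h1, higher under the Scriptaid label. By role, 4 of 5 H3K9 methyltransferases and 5 of 7 Trithorax and other methyltransferases were higher under the Scriptaid label. So were 2 of 3 HP1 genes, of which Cbx5 passed by its brightest probe alone, and none in these groups passed the other way. PRC2, PRC1, the demethylases and the DNA methylation genes held calls of both signs. These shares by role are descriptions and were not tested against each other.

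**Figure D1:**
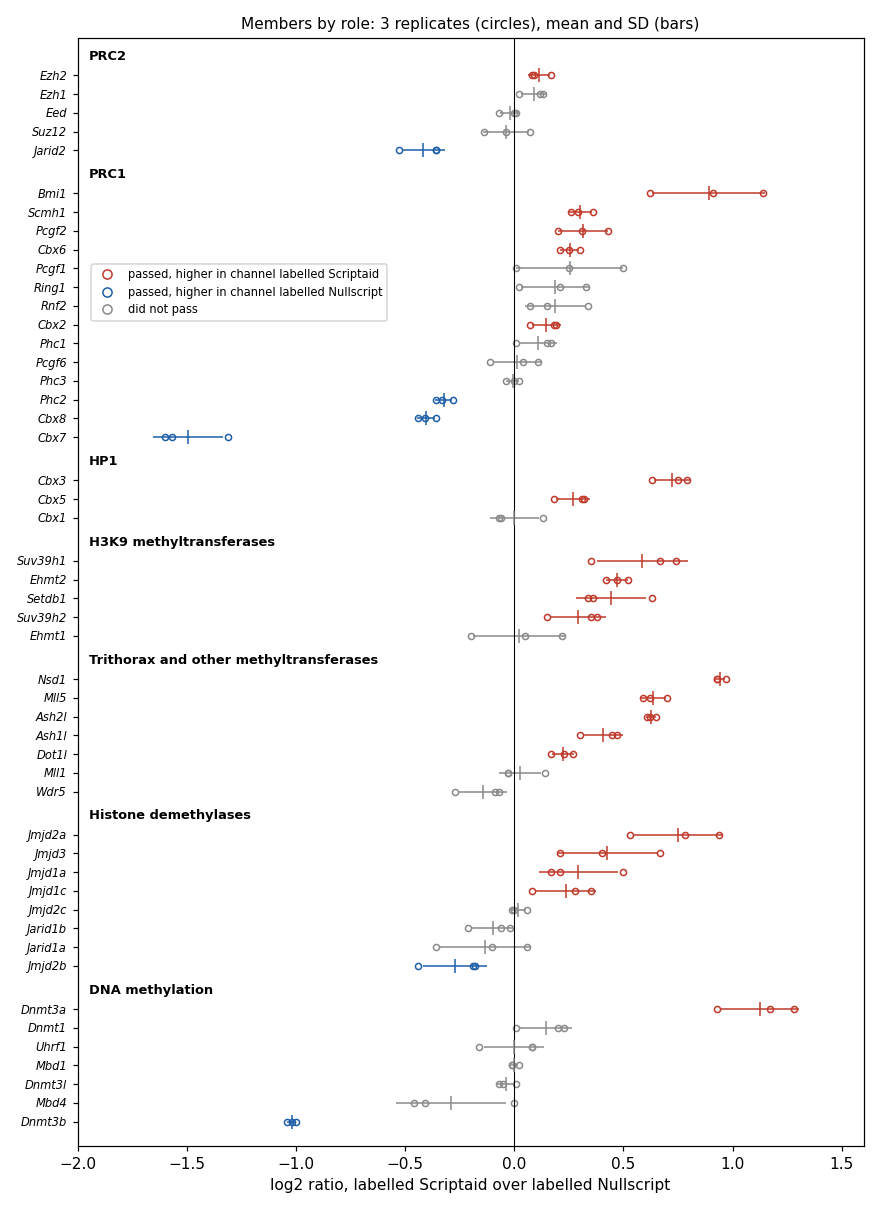
Log2 ratio (labelled Scriptaid over labelled Nullscript, x axis) of each of the 49 genes, grouped by role; circles are the 3 replicates, each the mean of its dye-exchanged arrays, and bars are the mean and SD. Cbx7 at -1.50 and Dnmt3b at -1.02 lie farthest to the left and Dnmt3a at 1.13 farthest to the right. The HP1, H3K9 methyltransferase and Trithorax genes that passed all lie right of 0.

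The sequences just upstream of the start sites are shown for 4 genes that differed in opposite directions within a role, the DNA methyltransferase genes Dnmt3a and Dnmt3b and the PRC1 subunit genes Bmi1 and Cbx7. They are the 250 bases before a RefSeq start site on GRCm38.p6, read 5′ to 3′ in the direction of the gene, and capitals mark CpG, the dinucleotide that DNA methyltransferases modify. Dnmt3a has more than 1 annotated start, and windows of 2 of them that do not overlap are given.
Dnmt3a, chr12:3806730-3806979 (+ strand): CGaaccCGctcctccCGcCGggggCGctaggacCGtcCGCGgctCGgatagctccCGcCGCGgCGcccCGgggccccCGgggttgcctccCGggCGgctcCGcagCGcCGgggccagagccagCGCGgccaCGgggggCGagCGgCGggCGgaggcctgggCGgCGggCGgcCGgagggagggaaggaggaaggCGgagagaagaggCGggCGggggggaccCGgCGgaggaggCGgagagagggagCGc
Dnmt3a, chr12:3891494-3891743 (+ strand): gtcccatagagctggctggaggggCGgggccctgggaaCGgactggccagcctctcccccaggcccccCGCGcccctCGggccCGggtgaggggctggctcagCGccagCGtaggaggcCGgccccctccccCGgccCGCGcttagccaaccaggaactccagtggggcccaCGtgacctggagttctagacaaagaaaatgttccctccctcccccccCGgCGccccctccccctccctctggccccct
Dnmt3b, chr2:153649199-153649448 (+ strand): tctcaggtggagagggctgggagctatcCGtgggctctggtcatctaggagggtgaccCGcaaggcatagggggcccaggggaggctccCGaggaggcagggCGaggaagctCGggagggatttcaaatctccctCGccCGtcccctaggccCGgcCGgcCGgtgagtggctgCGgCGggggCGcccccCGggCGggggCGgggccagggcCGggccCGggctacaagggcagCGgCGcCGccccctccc
Cbx7, chr15:79932647-79932896 (- strand): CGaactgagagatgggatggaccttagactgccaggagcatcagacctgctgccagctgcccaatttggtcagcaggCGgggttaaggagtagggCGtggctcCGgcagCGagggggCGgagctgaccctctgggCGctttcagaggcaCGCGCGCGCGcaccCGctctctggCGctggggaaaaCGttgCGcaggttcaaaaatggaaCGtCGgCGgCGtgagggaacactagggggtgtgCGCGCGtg
Bmi1, chr2:18676768-18677017 (+ strand): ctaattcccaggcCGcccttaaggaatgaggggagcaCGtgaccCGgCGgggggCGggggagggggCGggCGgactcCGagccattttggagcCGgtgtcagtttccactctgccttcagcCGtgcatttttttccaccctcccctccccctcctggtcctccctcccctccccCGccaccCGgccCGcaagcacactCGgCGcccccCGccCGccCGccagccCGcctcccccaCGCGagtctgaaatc

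CpG was frequent in all 5 windows. The upstream Dnmt3a window held 38 CpG and the downstream one 15, the Dnmt3b window 21, the Cbx7 window 23 and the Bmi1 window 21. Over the 58 windows found for 39 of the 49 genes the median was 20 CpG, compared with 6 over all 32851 windows available, of 27025 genes. No window was available for the other 10 genes, among them Nsd1, Ash2l and Mll5. Both Dnmt3a, higher under the Scriptaid label, and Dnmt3b, higher under the Nullscript label, had windows above the median of all windows. Methylation itself was not measured. The words TTTCCCGC, TTTCGCGC, TTTGCCGC and TTTGGCGC, which match the E2F motif, were searched on both strands, counting a window once however many of them overlapped in it. They occurred in 5 of the 58 windows (8.62%) and in 1.86% of all windows of this length. Each word contains a CpG, which is more frequent in the genes' windows (median 20 against 6). Windows of equal CpG content were not compared. The 5 windows belonged to Cbx3, Dnmt1, Suv39h1, Suz12 and Uhrf1, of which Cbx3 and Suv39h1 passed the test. CCAAT, on both strands, occurred in 29.3% of the genes' windows and 33.8% of all, and TATAAA, on the gene's strand, in 1.72% and 7.59%. Such matches describe letters in these windows and show no binding.

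Among the DNA methylation genes, the de novo methyltransferases Dnmt3a and Dnmt3b differed in opposite directions, and the other 5 genes did not pass. The share of this group that passed was 28.6%, against 46.2% of all genes. For Dnmt3a the 3 arrays with Scriptaid labelled in Cy3 gave log2 ratios of 1.24, 1.12 and 1.52 (replicates 1, 2 and 3), and the 3 with Scriptaid labelled in Cy5 gave 0.62, 1.22 and 1.04. All 6 were above 0, with replicate 1 in Cy5 the lowest. The mean was 1.13 ± 0.18 (SD, n = 3), a 2.18-fold higher signal under the Scriptaid label (limma adjusted p = 0.000335). Its dimmer probes gave 1.36 ± 0.17 and 1.08 ± 0.10 (SD, n = 3), so all 3 probes of the gene lay near or above 1. Dnmt3b gave -0.98, -0.92 and -0.97 on the arrays with Scriptaid in Cy3 and -1.03, -1.15 and -1.07 on those with Scriptaid in Cy5. All 6 were below 0, the Cy5 values slightly lower than the Cy3 values and not overlapping them. The mean of -1.02 ± 0.02 (SD, n = 3) was a 2.03-fold higher signal under the Nullscript label (adjusted p = 0.000122), from the gene's only probe.

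The maintenance enzyme Dnmt1 had replicate ratios of 0.01, 0.20 and 0.23 and did not pass (0.15 ± 0.12, SD, n = 3; adjusted p = 0.0721); without replicate 1 it did (0.22, adjusted p = 0.01). Uhrf1, which brings Dnmt1 to hemimethylated DNA, had a ratio of 0 ± 0.14 (SD, n = 3), with a 95% interval of -0.15 to 0.15. Dnmt3l, the catalytically inactive partner of the de novo enzymes, had -0.04, with an interval of -0.12 to 0.04. Mbd4, a glycosylase that removes thymine or uracil mispaired at CpG, had -0.29 ± 0.25 (SD, n = 3) and did not pass (adjusted p = 0.0652), but passed without replicate 1 (-0.44, adjusted p = 0.00152), whose own ratio was 0. Mbd1, a methyl-CpG binding protein, had a ratio of 0 by its brightest probe, and its other probes disagreed: the second gave 0.19 ± 0.11 (SD, n = 3; adjusted p over all probes 0.0346) and the third -0.26 ± 0.04 (SD, n = 3; adjusted p over all probes 0.00277). No single direction can be given for Mbd1.

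**Figure D2:**
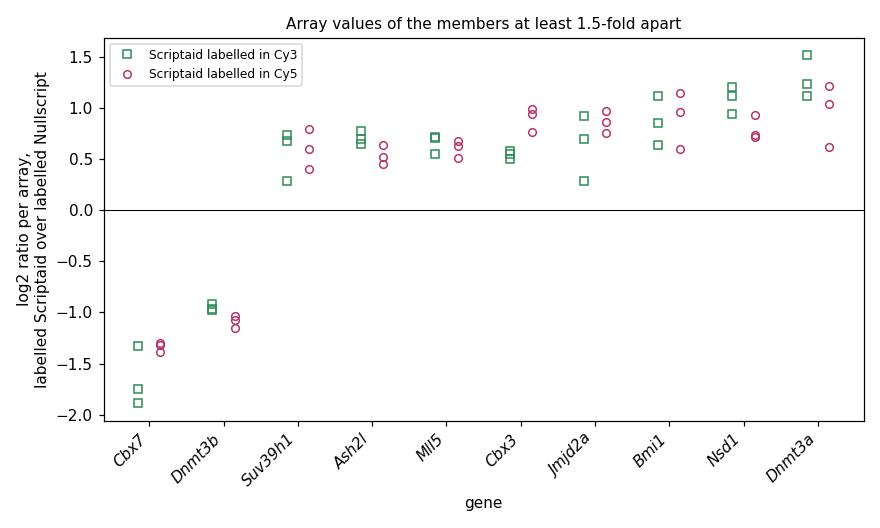
Log2 ratio (y axis) on each of the 6 arrays for the 10 genes at least 1.5-fold apart; squares show Scriptaid in Cy3 (3 arrays) and circles Scriptaid in Cy5 (3 arrays). For each gene shown, all 6 arrays lie on the same side of 0, and the orientations do not overlap for Cbx3 (0.50 to 0.58 in Cy3, 0.77 to 0.99 in Cy5), Nsd1, Ash2l and Dnmt3b.

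In PRC1, 5 of 14 genes were higher under the Scriptaid label, 3 were higher under the Nullscript label and 6 did not pass, with a median ratio of 0.16. Over all genes tested, 22.5% and 23.7% passed in these directions. The PRC1 count under the Scriptaid label was 9 without replicate 2, with median centring in place of loess and with the Cy5 orientation alone. It was 8 with the replicate block, while the count under the Nullscript label stayed at 3 with median centring. In these 4 settings 41.7%, 54%, 43.4% and 48.4% of all genes passed, against 46.2% in the main fit. The chromodomain genes, whose products bind methylated H3K27, held the strongest difference of the 49. Cbx7 gave -1.75, -1.33 and -1.89 on the arrays with Scriptaid in Cy3 and -1.39, -1.30 and -1.32 on those with Scriptaid in Cy5. Every array was below -1, and the spread was wider in the Cy3 orientation. With a mean of -1.50 ± 0.16 (SD, n = 3), its signal was 2.82-fold higher under the Nullscript label (adjusted p = 0.000161), from 1 probe. Cbx8, from the same family, was also higher under the Nullscript label, with -0.41 ± 0.04 (SD, n = 3; adjusted p = 0.00054) by its brightest probe. Its second probe, of nearly the same brightness, gave a larger difference of -0.96 ± 0.18 (SD, n = 3). Cbx6 went the other way, with 0.25 ± 0.04 (SD, n = 3; adjusted p = 0.0025), and a dimmer probe gave 0.38. Its brightest probe was marked as an outlier spot on 4 arrays and gave a ratio in replicate 3 alone, so the next probe stands for the gene. Cbx2 passed narrowly at 0.14 ± 0.07 (SD, n = 3; adjusted p = 0.0289) and did not pass without replicate 1 (0.13, adjusted p = 0.0941) or without replicate 3 (0.12, adjusted p = 0.178). The second probe of Cbx2 gave -0.04, and averaged over its probes the gene did not pass (0.05, adjusted p = 0.191).

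Of the genes for Pcgf subunits, which pair with the Ring proteins and define PRC1 variants, Bmi1 (Pcgf4) differed most. Its arrays with Scriptaid in Cy3 gave 1.12, 0.64 and 0.86, and those with Scriptaid in Cy5 gave 1.15, 0.60 and 0.96. Replicate 2 was lowest in both orientations, and all 6 arrays were above 0. The mean ratio was 0.89 ± 0.26 (SD, n = 3; 1.85-fold, adjusted p = 0.00174), and a second probe gave 1.00 ± 0.26 (SD, n = 3). Pcgf2, also called Mel18, had 0.31 ± 0.12 (SD, n = 3; adjusted p = 0.00613). Pcgf1 ranged from 0.01 to 0.50 between replicates and did not pass (mean 0.25, adjusted p = 0.086), and Pcgf6 was at 0.01. Scmh1, a Sex comb on midleg homolog that joins PRC1, had 0.31 ± 0.05 (SD, n = 3; adjusted p = 0.0016).

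The catalytic ubiquitin ligase genes Ring1 and Rnf2 each had a mean ratio of 0.19 and did not pass (adjusted p = 0.0718 and 0.0544). Without replicate 2, Ring1 (0.27, adjusted p = 0.0129), Rnf2 (0.25, adjusted p = 0.0356), Pcgf1 (0.38, adjusted p = 0.0172) and Phc1 (0.16, adjusted p = 0.0307) all passed. That replicate had the lowest ratio for each of these 4 genes. A second, dimmer probe of Rnf2 gave 0.22 ± 0.04 (SD, n = 3) and passed over all probes (adjusted p = 0.00518). The Polyhomeotic genes, whose products polymerise through their SAM domains, were split. Phc2 had -0.32 ± 0.04 (SD, n = 3; adjusted p = 0.00109), while its dim second probe gave -0.02; Phc1 had 0.11 and Phc3 -0.01, and neither passed.

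The PRC2 genes had the smallest median absolute ratio of the role groups, 0.09, near the 0.1 of all genes tested. Of the 5 genes, 2 passed (40%, against 46.2% of all genes). Jarid2, an accessory subunit that helps recruit PRC2, gave -0.57, -0.42 and -0.29 on the arrays with Scriptaid in Cy3 and -0.49, -0.30 and -0.43 on the others. All 6 were below 0, with replicate 1 lowest in each orientation. Its mean of -0.42 ± 0.10 (SD, n = 3; adjusted p = 0.00148) was matched by the second probe at -0.43 ± 0.05, and another, dim probe gave 0.01. Ezh2, the main H3K27 methyltransferase, passed at 0.12 ± 0.05 (SD, n = 3; adjusted p = 0.0377), a 1.08-fold difference. It did not pass without replicate 1 (adjusted p = 0.0579), without replicate 2 (adjusted p = 0.0824) or without replicate 3 (adjusted p = 0.225), with ratios of 0.09 to 0.13. Its less active relative Ezh1 had 0.09 and did not pass, with an interval of 0 to 0.18. The core subunits Eed and Suz12 had -0.02 (interval -0.10 to 0.06) and -0.04 (interval -0.16 to 0.09). Among the 5 genes only Jarid2 thus kept its call when any single replicate was left out.

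Of the HP1 genes, which encode readers of H3K9 methylation, Cbx3 (HP1 gamma) gave 0.58, 0.50 and 0.55 with Scriptaid in Cy3 and 0.99, 0.77 and 0.94 with Scriptaid in Cy5. The dye orientations did not overlap, and a dye term of 0.18 passed (adjusted p = 0.0247). The mean over both orientations was 0.72 ± 0.08 (SD, n = 3; 1.65-fold, adjusted p = 0.000248). A second probe gave 0.73 ± 0.04 (SD, n = 3), with 0.67 to 0.81 in Cy3 and 0.71 to 0.75 in Cy5, and another, dim probe gave 0.03. Cbx5 (HP1 alpha) passed at 0.27 ± 0.08 (SD, n = 3; adjusted p = 0.0045) by its brightest probe, yet its further probes gave -0.05, -0.03 and -0.10. Averaged over all its probes the ratio was 0.02 (adjusted p = 0.603), so its call rests on 1 probe. Cbx1 (HP1 beta) had 0 ± 0.11 (SD, n = 3), with an interval of -0.13 to 0.13; its arrays gave -0.34, 0.06 and -0.34 in Cy3 and 0.20, 0.20 and 0.21 in Cy5.

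**Figure D3:**
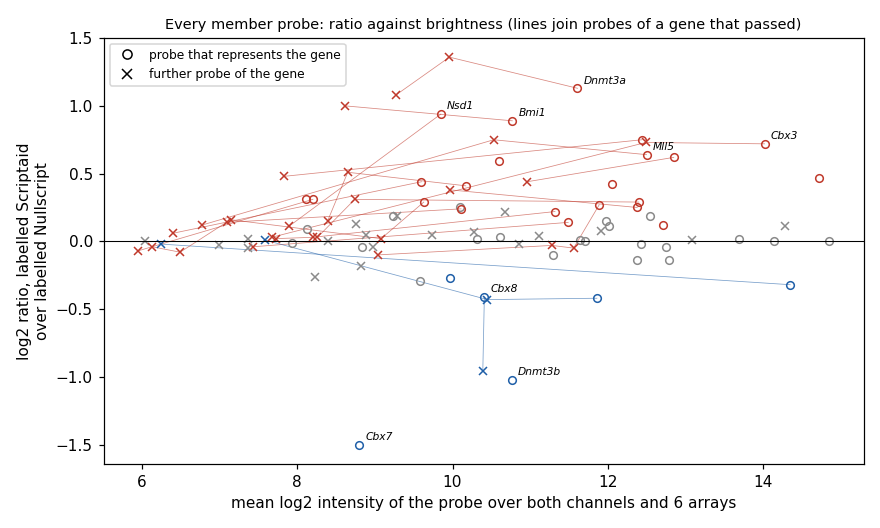
Log2 ratio of each probe of the 49 genes (y axis) against its mean log2 intensity over both channels and 6 arrays (x axis); circles are the probes that represent genes, crosses are further probes, thin lines join the probes of a gene that passed, red and blue are genes that passed with a positive or a negative ratio, and grey genes did not pass. Many of the crosses at the dim end lie near 0, while the brighter probes of Bmi1, Dnmt3a, Cbx3 and Mll5 lie together above 0.

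The H3K9 methyltransferase genes were higher under the Scriptaid label in 4 of 5 cases (22.5% over all genes), with a median ratio of 0.44. Suv39h1, which trimethylates H3K9 in heterochromatin, gave 0.68, 0.29 and 0.74 in Cy3 and 0.80, 0.41 and 0.60 in Cy5. Replicate 2 was lowest in both orientations. The mean was 0.59 ± 0.21 (SD, n = 3; 1.5-fold, adjusted p = 0.00363), from 1 probe. Its relative Suv39h2 had 0.29 ± 0.12 (SD, n = 3; adjusted p = 0.00838) by the brightest probe and did not pass without replicate 3 (0.25, adjusted p = 0.063) or averaged over its probes (0.10, adjusted p = 0.0992). Ehmt2 (G9a), the main mono- and dimethylating enzyme of H3K9, had 0.47 ± 0.05 (SD, n = 3; adjusted p = 0.000408), whereas its partner Ehmt1 (GLP) ranged from -0.20 to 0.22 between replicates and averaged 0.02. Setdb1, an enzyme recruited with Trim28 to silence transposable elements, had 0.44 ± 0.16 (SD, n = 3; adjusted p = 0.00464), while a dim second probe gave 0.06.

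Trithorax and other methyltransferase genes gave 5 of 7 higher under the Scriptaid label (22.5% over all genes), with a median of 0.41. Nsd1, an H3K36 methyltransferase, gave 1.12, 0.94 and 1.21 in Cy3 and 0.74, 0.93 and 0.72 in Cy5. The Cy3 values were all above the Cy5 values, while the replicate means were close to each other, at 0.93, 0.93 and 0.97, and averaged 0.94 ± 0.02 (SD, n = 3; 1.92-fold, adjusted p = 0.000128). A dimmer second probe gave 0.11 ± 0.07 (SD, n = 3) and did not pass, so the probes of Nsd1 differ in size by more than their replicate spread. Mll5, a SET-domain protein of the Trithorax type, gave 0.71, 0.72 and 0.55 in Cy3 and 0.68, 0.51 and 0.63 in Cy5, which overlap. Its mean was 0.64 ± 0.05 (SD, n = 3; 1.55-fold, adjusted p = 0.000229), with 0.75 ± 0.08 (SD, n = 3) by a second probe and 0.12 by another, dim one. Ash2l, a shared subunit of the H3K4 methyltransferase complexes, gave 0.70, 0.78 and 0.65 in Cy3 and 0.52, 0.45 and 0.64 in Cy5. The Cy5 values were all below the Cy3 values, all 6 were above 0, and the mean was 0.62 ± 0.02 (SD, n = 3; 1.54-fold, adjusted p = 0.000172), with 0.44 ± 0.15 (SD, n = 3) by a second probe.

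Ash1l, an H3K36 methyltransferase, had 0.41 ± 0.09 (SD, n = 3; adjusted p = 0.00147), with 0.51 and 0.15 by further probes. Dot1l, the H3K79 methyltransferase, had 0.22 ± 0.05 (SD, n = 3; adjusted p = 0.00448), but its further probes gave 0.03 and 0.02, and averaged over its probes it did not pass (0.09, adjusted p = 0.0562). Wdr5, another shared subunit of the H3K4 complexes, was below 0 on all 6 arrays with a mean of -0.14 ± 0.11 (SD, n = 3) and did not pass (adjusted p = 0.0665). The catalytic gene Mll1 was at 0.03, with an interval of -0.09 to 0.14.

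Among the histone demethylase genes 4 of 8 were higher under the Scriptaid label and 1 was higher under the Nullscript label (22.5% and 23.7% over all genes). Jmjd2a, which acts on H3K9 and H3K36, gave 0.29, 0.92 and 0.70 in Cy3 and 0.76, 0.97 and 0.87 in Cy5. Replicate 1 was lowest in both orientations, and no array was below 0. Its mean was 0.75 ± 0.21 (SD, n = 3; 1.68-fold, adjusted p = 0.00162), and a second probe gave 0.48 ± 0.30 (SD, n = 3). Its relatives differed from it: Jmjd2b had -0.27 ± 0.14 (SD, n = 3; adjusted p = 0.0175) and Jmjd2c 0.02, with an interval of -0.06 to 0.10. Jmjd3, an H3K27 demethylase that removes the PRC2 mark, had 0.42 ± 0.23 (SD, n = 3; adjusted p = 0.0151). The H3K9 demethylase gene Jmjd1a had 0.29 ± 0.18 (SD, n = 3; adjusted p = 0.0248), and its relative Jmjd1c 0.24 ± 0.14 (SD, n = 3; adjusted p = 0.0261). Without replicate 3, the only replicate on its slide, none of these last 4 passed: Jmjd2b had -0.32 (adjusted p = 0.052), Jmjd3 0.44 (adjusted p = 0.0786), Jmjd1a 0.33 (adjusted p = 0.0774) and Jmjd1c 0.18 (adjusted p = 0.14). Jmjd1c also failed without replicate 1 (0.22, adjusted p = 0.0857). The H3K4 demethylase genes Jarid1a and Jarid1b had -0.14 and -0.10 and did not pass.

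**Figure D4:**
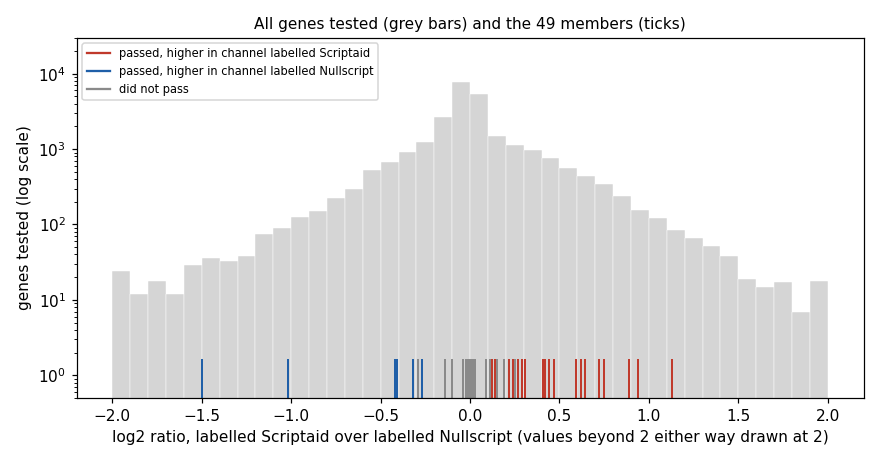
Number of all 26763 genes tested (grey bars, log scale on the y axis) by log2 ratio (x axis), with a tick for each of the 49 Polycomb and methylation genes; values beyond 2 either way are drawn at 2. The ticks run from -1.50 to 1.13, with the outermost (Cbx7, Dnmt3a and Dnmt3b) in the tails of all genes, and 33 of the 49 lie above 0, against 12396 of all 26763 genes.

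The 49 genes had 101 probes, of which 3 were not well above background (the dim further probes of Phc3, Scmh1 and Suv39h2). Further probes could be tested for 19 of the 28 genes that passed. Of these 30 further probes, 24 had the sign of the gene's brightest probe, 14 of them also passing over all probes, and 0 passed with the opposite sign. Over all 39390 probes tested 45.2% passed, so 14 of 30 is near the share of any probe. In 15 of the 19 genes all further probes had the same sign. Only the sign is shared in several of these, where a further probe gave a much smaller ratio, while the dimmer probes of Bmi1 and Dnmt3a did not. Why probes of a gene differed was not tested.

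A list of other genes of the same pathways held 100 names, and 90 were tested. Of these 67 passed (74.4%), 53 higher under the Scriptaid label and 14 higher under the Nullscript label, with a median ratio of 0.24. Over all genes tested 46.2% passed, 22.5% and 23.7% in these directions, with a median of -0.01. The 5 with the largest positive ratios were Setd1b, an H3K4 methyltransferase (1.66 ± 0.12, SD, n = 3), the arginine methyltransferase Prmt1 (1.44 ± 0.55), the PRC2 accessory gene Phf19 (1.31 ± 0.16), the lysine methyltransferase Setd7 (1.2 ± 0.12) and Hcfc1 (1.16 ± 0.21), a subunit of H3K4 methyltransferase complexes. In the other direction were the lysine demethylase Aof1, now Kdm1b (-1.19 ± 0.04), the methyltransferase Smyd3 (-0.75 ± 0.08) and the PRC1 genes Pcgf5 (-0.56 ± 0.04) and Rybp (-0.48 ± 0.04). Without replicate 3 the genes of this list higher under the Nullscript label fell from 14 to 9. All calls in the list then fell from 67 to 53, and those over all genes from 12360 to 8358.

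**Figure D5:**
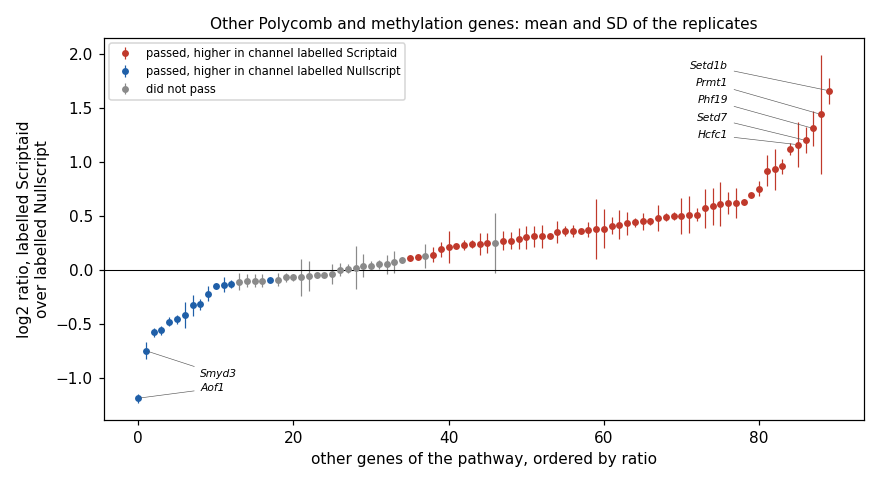
Log2 ratio (y axis) of the 90 other genes of these pathways, ordered by ratio (x axis); points are the mean and bars the SD of 3 replicates (2 for Ncoa6), and the 5 highest and 2 lowest that passed are named. Setd1b is highest at 1.66 and Aof1 lowest at -1.19, and 53 of the points are red, for a higher signal under the Scriptaid label.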

How the data were processed

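The data were 6 two-colour Agilent 4x44k arrays. The deposited scanner files, made with Agilent Feature Extraction 9.1.3.1 per the file headers, hold spot intensity on a linear scale and, computed by the scanner software, a log10 ratio. The authors' deposited value table holds log10 ratios equal to those turned by the dye fields (largest difference 4.82e-06), so its direction is labelled Scriptaid over labelled Nullscript with no further centring. The series text speaks of dye swap on 2 of 4 arrays, while the labels' dye fields describe 6, which were followed.

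Background was corrected with normexp (offset 50), arrays were normalised by loess without control spots, spots marked as outliers were dropped but saturated ones stayed in, and repeat spots of a probe were averaged. Each replicate's value was the mean of its dye-exchanged arrays, so that dye effects cancel; a probe lacking one had no value there. A probe was kept if well above background for either drug on 3 or more of the 6 arrays. A gene was the file's gene name, represented by its brightest probe with values in at least 2 replicates. The mean of 3 replicates was tested against 0 with limma 3.58.1 in R 4.3.3 and Benjamini-Hochberg adjustment over all 26763 genes (threshold 0.05). Every probe was also tested, adjusted over all probes, and a dye term was fitted on 6 arrays with the replicate as a random block. Intervals are 95% from limma. Only the limma step was run on simulated data, replicate values with added shifts. Background correction, normalisation, filters and probe choice were not simulated. The number of arrays limits the precision.

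The genes and lists were chosen with earlier results of these data known. Replicate-level values and full statistics are given for genes that passed with a log2 ratio of at least 0.58 either way and, in a role group without one, for its largest call; of the other pathway genes, the 5 largest calls in each direction are named, except 1 that is not reported here. The arrays of a replicate are paired by the labels. Correlations of their deviations from the group means were 0.607, 0.152 and -0.0255 for replicates 1, 2 and 3. Pairs across replicates 2 and 3 gave 0.206 and 0.178, above the labelled pairs of these replicates. These correlations therefore do not single out the labelled pairing of replicates 2 and 3, on which their replicate means rest. Replicates 1 and 2 were on slide 1 and replicate 3 on slide 2. Accessions matched 45 names to RefSeq, 1 matched by symbol and 3 by an older symbol. Promoter sequences are from RefSeq on GRCm38.p6; the array files name no build. Alternatives covered background, normalisation, filters, probe summaries, dye orientation, slide and replicates.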

Additional observations from a re-analysis of the deposited data

Results flagged for a closer look

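For Phc3 and Mbd1 all 3 arrays of one dye orientation lay on one side of 0 and all 3 of the other orientation on the opposite side. Phc3 had a mean log2 ratio 0.17 higher with Scriptaid in Cy5 than in Cy3, and its dye term did not pass (limma adjusted p = 0.146). Mbd1 differed by -0.29 on the same scale, and its dye term of -0.14 passed (adjusted p = 0.0307). Both genes had a mean ratio near 0 over the orientations and neither passed the test between the drugs.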

How the results depend on the processing

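Of the 28 genes that passed, 19 did so under all 19 alternatives and 0 changed sign under any, though not all alternatives could differ. Aquantile scaling between arrays leaves the ratios as they were, the value table deposited by the authors repeats the scanner ratios, and the fit within slide 1 repeats that without replicate 3. The probes representing the 49 genes were well above background on all 6 arrays for both drugs, and 0 were saturated. Both changes of the filter, leaving out saturated spots and testing every probe therefore left these genes' ratios as they were. Keeping the spots marked as outliers could change the ratio of Cbx6 alone. The calls that were lost belonged to Ezh2, Cbx2, Cbx5, Suv39h2, Dot1l, Jmjd1a, Jmjd1c, Jmjd2b and Jmjd3. Of the 21 that did not pass, 10 passed under none. The number that passed ranged from 21 to 31 of 49 when 1 replicate was left out (8358 to 11231 over all genes and 53 to 62 of the other pathway genes), with 21 without replicate 3. The fit of 6 arrays with the replicate block gave 34 (12953 over all genes, 71 other pathway genes), adding Ring1, Rnf2, Pcgf1, Wdr5, Dnmt1 and Mbd4. Slide as a fixed block gave 23 (10015 over all genes), arrays with Scriptaid in Cy3 alone 24 (10333) and in Cy5 alone 34 (11621). Median centring gave 34 (14442) and the scanner ratios 29 (12574), where the main fit gave 28 (12360). The counts over all genes thus moved with the setting as well. The median ratio moved from 0.14 to 0.22 with median centring in place of loess and to 0.09 when each gene's probes were averaged. Sign changes that passed occurred for Cbx1, at 0.12 with median centring (adjusted p = 0.0476) and 0.20 with the Cy5 orientation alone (adjusted p = 0.00888), and for Mbd1, at 0.14 with the Cy3 orientation alone (adjusted p = 0.0432); single orientations do not cancel dye effects, and for median centring the cause was not tested. Brightness limits the dim probes, 3 of which were not well above background.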
